A study of Mus musculus with 12 samples.

Results

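The data compared here are those of primary hepatocytes of mice whose Hnf4a gene was knocked out (KO) with primary hepatocytes of wild-type (WT) mice, when both had been treated with MJ041. The comparison was defined by genotype and treatment in the labels, and it takes in 6 of the 12 RNA-seq libraries, 3 KO and 3 WT. The other 6, KO and WT cells given the vehicle (written DMS in the labels), were used for the shared estimate of the spread and to set the genotype difference beside that without the compound. MJ041 is a compound known here only by its code name, which the study's title calls a candidate ligand in work on HNF4A dysfunction in sepsis. The labels of these libraries name no septic or inflammatory stimulus. The knockout allele and what drove its deletion, the dose and duration of MJ041, and the age of the mice were not given in the sources used here. Nothing says that replicates came from separate animals, so p-values measure only the spread between these samples, which may be technical.

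HNF4A is a nuclear receptor that sits on the promoters and enhancers of a large share of the genes expressed in hepatocytes. It is known as a master regulator of the adult liver program, with classical targets among clotting factors, apolipoproteins, cytochrome P450 enzymes, bile acid genes and amino acid catabolism, and it stands in a network with FOXA factors and other nuclear receptors. Its loss in the liver is known to be followed by lower expression of these genes and by hepatocyte proliferation.

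The bases before the start site of 6 strongly changed genes are given from RefSeq on GRCm38.p6, 5′ to 3′ along the gene. They were picked because they hold the motif named for them, which is in capitals. They are examples and do not represent changed genes at large. Cyp2c69 (chr19:39886770-39887019, minus strand) and Cyp3a11 (chr5:145879855-145880104, minus strand) fell and hold the HNF4A core CAAAGTCC. Prodh2 (chr7:30493408-30493657, plus strand) and F13b (chr1:139501457-139501706, plus strand) fell and hold the HNF1 core GTTAATNAT, read on the opposite strand. Mki67 (chr7:135716380-135716629, minus strand) and Kif11 (chr19:37376132-37376381, plus strand) rose and hold TTTGAA, the core of the cell cycle genes homology region (CHR), which is known to carry the complexes that time late cell cycle genes; in Kif11 it lies on the opposite strand.
Cyp2c69: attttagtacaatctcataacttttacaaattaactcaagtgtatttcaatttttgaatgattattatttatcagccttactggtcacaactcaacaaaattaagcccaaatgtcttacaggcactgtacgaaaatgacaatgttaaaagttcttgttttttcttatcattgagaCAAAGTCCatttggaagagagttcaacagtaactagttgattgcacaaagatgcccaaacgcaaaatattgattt
Cyp3a11: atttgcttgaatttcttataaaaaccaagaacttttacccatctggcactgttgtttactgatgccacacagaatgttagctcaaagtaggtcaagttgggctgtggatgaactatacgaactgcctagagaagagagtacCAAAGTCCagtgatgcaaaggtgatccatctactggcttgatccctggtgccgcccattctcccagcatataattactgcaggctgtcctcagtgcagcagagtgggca
Prodh2: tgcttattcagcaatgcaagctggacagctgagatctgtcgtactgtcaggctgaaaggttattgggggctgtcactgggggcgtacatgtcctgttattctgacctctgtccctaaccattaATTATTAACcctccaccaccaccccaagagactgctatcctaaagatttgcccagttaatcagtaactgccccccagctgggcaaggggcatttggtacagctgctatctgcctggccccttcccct
F13b: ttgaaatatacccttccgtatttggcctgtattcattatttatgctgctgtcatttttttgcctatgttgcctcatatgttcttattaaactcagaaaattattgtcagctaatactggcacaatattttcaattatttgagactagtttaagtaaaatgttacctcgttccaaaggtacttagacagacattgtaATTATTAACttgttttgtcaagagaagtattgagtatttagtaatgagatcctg
Mki67: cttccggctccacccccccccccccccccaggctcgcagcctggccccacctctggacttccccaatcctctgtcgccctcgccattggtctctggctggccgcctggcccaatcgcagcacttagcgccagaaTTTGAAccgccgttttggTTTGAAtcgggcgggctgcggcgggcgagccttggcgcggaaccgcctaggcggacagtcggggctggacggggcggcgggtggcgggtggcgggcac
Kif11: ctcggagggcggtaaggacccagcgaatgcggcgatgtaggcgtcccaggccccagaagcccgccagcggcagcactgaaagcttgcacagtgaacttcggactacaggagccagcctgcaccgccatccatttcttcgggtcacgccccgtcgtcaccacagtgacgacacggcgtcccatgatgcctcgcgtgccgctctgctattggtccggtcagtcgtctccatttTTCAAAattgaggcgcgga
The HNF4A core starts 75 bases before the start site in Cyp2c69 and 109 before it in Cyp3a11, and the HNF1 core starts 127 before it in Prodh2 and 54 before it in F13b. Mki67 has 2 CHR cores, at 116 and 98 bases, and Kif11 has 1 at 19 bases. Cyp2c69, which fell, also holds TTTGAA at 198 bases, left in lower case above.

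Over promoter windows of 250 bases before to 50 after the start, searched on both strands, the HNF4A core was found in 1.42% of the 32851 promoters in the table and in 1.32% of those of tested genes that did not pass the test described below. It was found in 4.99% (40 of 801) of the promoters of genes that fell at least 2-fold and in 1.78% (23 of 1290) of those of genes that rose at least 2-fold. Among genes that fell at least 8-fold, a limit chosen after the values were seen, the share was 13.9% (25 of 180). The HNF1 core was found in 0.801% of all promoters and 0.614% of those of tested genes. Among genes that fell, its share was 2.62% at 2-fold or more and 6.67% at 8-fold or more. The CHR core was found in 17.9% of all promoters and 12.5% of those of tested genes. Its share was 76.3% (29 of 38) in the mitosis and cytokinesis list, also looked up after the values were seen. The CHR core did not separate rises from falls over all tested genes. It was in 17.2% of the promoters of genes that rose and 16.2% of those that fell at least 2-fold, and in 23.8% and 23.9% at 8-fold. The core of E2F sites, TTTCCCGC, was in 1 of the 38 promoters of the mitosis list. The TEAD core GGAATG was in 15.7% of the promoters of genes that fell and 13.3% of those of genes that rose at least 2-fold. Its share was 14.7% of all promoters and 12.5% of those of tested genes. The HNF4A core on the opposite strand ends in the letters TTTG with which the CHR core begins, so these motifs can overlap. The 14007 promoters of tested genes belong to 10958 genes, so a gene with several start sites is counted several times. Hsd3b3, for example, enters with windows that each hold the HNF4A core. Promoters of neighbouring Cyp2c genes share sequence and are not independent. A match describes these letters only.

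The 6 libraries held 16740761 to 17385286 counts each, and Albumin took 1.85 to 1.94% of the counts in KO against 4.45 to 5.30% in WT, with hepatocyte markers present at a summed 40303 to 83922 CPM in all 6 (CPM, counts scaled to a library of fixed size). In a principal component analysis of the 6, component 1 (78.9% of the variance) separated the genotypes, and component 2 (9.0%) ran from WT replicate 1 (25.7) to WT replicate 3 (-37.5), with the KO libraries between them. WT replicates 1 and 2 had fewer transcripts of other liver cells: the mean level of Kupffer, endothelial and stellate markers was 1.74 and 2.19 on the log2 CPM scale, against 3.29 in WT replicate 3 and 3.08 to 3.35 in KO. In bulk RNA, fewer cells of a type and less RNA per cell cannot be told apart. Counts that these 2 libraries touch are therefore given below also without them, which leaves 1 WT library with MJ041 that is assumed to vary like the other groups.

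The targeted gene was checked first. Hnf4a (ENSMUSG00000017950) was at 59.9, 76.0 and 66.7 CPM in KO replicates 1 to 3 and at 166, 178 and 142 CPM in WT replicates 1 to 3. All 3 KO libraries were below all 3 WT libraries, and the KO level was 41.7% of the WT level, a log2 fold change (KO against WT, with its standard error) of -1.26 ± 0.10 (adjusted p = 6.3e-07, edgeR quasi-likelihood test with Benjamini-Hochberg adjustment). Reads remained in KO. Which exons were deleted was not given in the sources used here, so the transcript level checks the label only as far as reads fall in the deleted part.

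KO and WT cells with MJ041 differed in both directions across a large share of the transcriptome. Of 14919 tested genes, 8118 (54.4%) passed an adjusted p of 0.05, of which 4005 (26.8% of tested genes) were higher in KO and 4113 (27.6%) lower. At least 2-fold differences were found for 2319 genes (15.5%), 1426 higher (9.56%) and 893 lower (5.99%). Falls reached further than rises. At least 32-fold differences were found for 77 genes that fell (0.516%) and for 33 that rose (0.221%), while at least 8-fold differences were near even, at 201 (1.35%) and 197 (1.32%). The KO and WT libraries did not overlap for 8826 genes (59.2%). The split of the calls moved with scaling: 49.3% of calls were higher in KO with the main scaling (trimmed mean of M-values, TMM) and 59.8% (4972 higher, 3343 lower) with upper-quartile scaling, where the median of all genes was 0.12 instead of 0.02 on the log2 scale.

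The 10 largest falls among genes with at least 4 counts in KO were 9 metabolic enzymes and 1 apolipoprotein, and 4 of them were Cyp2c enzymes, which oxidise drugs, steroids and fatty acids. Cyp2c69 was at 0.118, 0.114 and 0.117 CPM in KO and 82.1, 78.8 and 135 CPM in WT (log2 fold change -9.64 ± 0.43). Cyp2c37 (-8.47 ± 0.26), Cyp2c40 (-8.02 ± 0.19) and Cyp2c50 (-7.21 ± 0.15) also fell, by smaller steps. The Cyp2c69 value rests on 6 counts over the KO group. The KO libraries of these genes were close to no signal while the WT libraries were well counted. No overlap of the libraries was a condition for entering the 10, and 59.2% of all tested genes met it. Haao, which makes the precursor of NAD from tryptophan, was at 0.353, 0.172 and 0.117 CPM in KO and 46.4, 37.4 and 41 in WT (-7.56 ± 0.22). Prodh2, which breaks down hydroxyproline, was at 0.412, 0.229 and 0.175 CPM in KO and 44.4, 35.5 and 34.1 in WT (-7.09 ± 0.24). The others were the carboxylesterase Ces3a (-8.09 ± 0.33), the sulfotransferase Sult2a8 (-7.49 ± 0.24), the glucuronosyltransferase Ugt2b1 (-7.34 ± 0.24) and the high-density lipoprotein component Apoa2. Apoa2 had the most reads of the 10, at 16.8, 11.1 and 13.6 CPM in KO and 2051, 1776 and 1733 in WT (-7.06 ± 0.20). The adjusted p of the 10 ran from 3.3e-12 for Cyp2c50 to 2.4e-09 for Cyp2c69. Cyp2c, Ces and Ugt genes have near-identical copies, and how reads shared by copies were counted was not given, so values for single members are uncertain.

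Some genes were almost without reads in 1 genotype. Ces3b had 0 counts in KO and 718 in WT, at least 250-fold lower in KO if the group is set to 3 counts, the most that a count of 0 allows. Cyp2c54 had 2 counts in KO against 2082 in WT, a 1090-fold difference with a 95% counting interval from 301 to 8990. Hsd3b3, a steroid dehydrogenase, had 2 against 434 counts, 227-fold lower (62.4 to 1880). In the other direction, the lipase relative Pnliprp1 had 1915 counts in KO against 3 in WT, 611-fold higher (209 to 2960), and the T-type calcium channel gene Cacna1h had 997 against 3, 318-fold higher (108 to 1540). These intervals cover counting error only.

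The 10 largest rises included muscle-type and cell-shape genes that adult hepatocytes express little of. Uts2b, a urotensin-related peptide, was at 33.8, 58.8 and 47.1 CPM in KO and 0.433, 0.493 and 0.473 in WT (6.62 ± 0.29). The actin-binding genes Tpm2, a tropomyosin, and Cnn1, a calponin of smooth muscle, rose with it. Tpm2 was at 114, 154 and 123 CPM in KO and 2.60, 4.86 and 2.42 in WT (5.31 ± 0.26), and Cnn1 at 7.95, 4.92 and 5.55 and 0.185, 0 and 0.118 (5.82 ± 0.48). All 3 genes were near 0 in WT or at a few CPM. That every KO library was above every WT library was a condition for entering these 10 as well. Hmmr, a hyaluronan receptor that also acts on the mitotic spindle, rose by 4.88 ± 0.35, and Tspan8, a tetraspanin also on the cholangiocyte list, by 4.68 ± 0.43. The calcium channel subunit Cacna1c (4.93 ± 0.35), the melanosome transport protein Mlph (5.30 ± 0.39), the membrane protein Igdcc4 (5.19 ± 0.32), the ubiquitin ligase Neurl1a (4.82 ± 0.30) and the intracellular growth factor homologue Fgf13 (4.75 ± 0.51) completed the 10, with adjusted p from 2.0e-09 for Uts2b to 5.5e-06 for Fgf13.

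**Figure D1:**
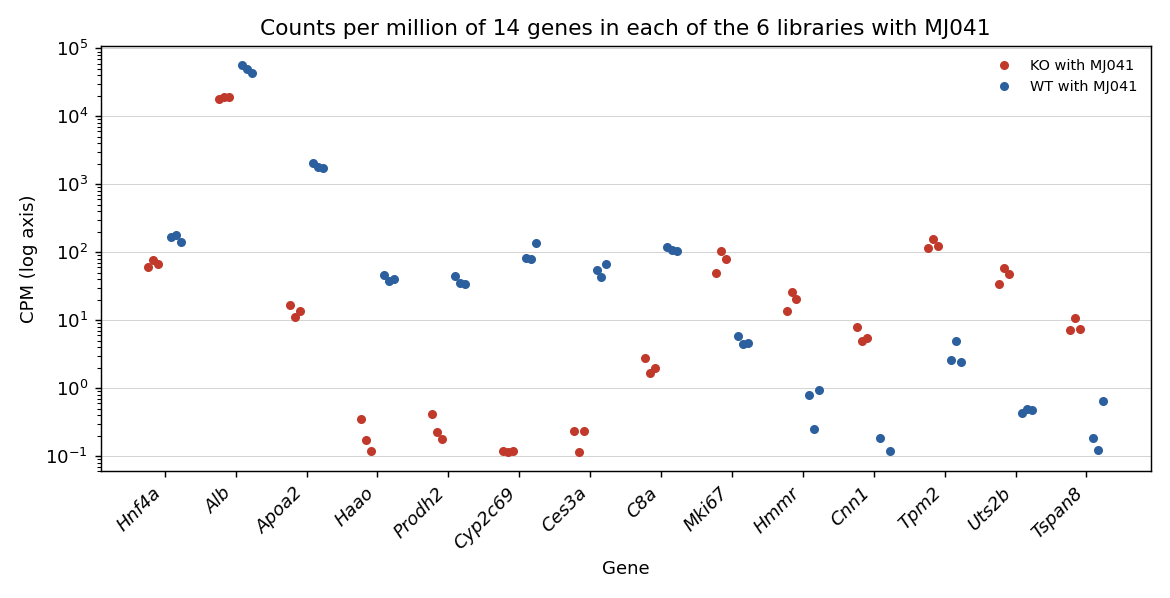
CPM (log axis) of 14 genes in each of the 6 libraries with MJ041, red for KO and blue for WT, replicates 1 to 3 from left to right. KO and WT points do not overlap for any of the 14, which was a condition of choice for those taken from the largest rises and falls. Cnn1 in WT replicate 2 is at 0 CPM and not drawn.

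Most members of a list of HNF4A targets fell. The list was written with earlier results of these data known, so its counts describe these data and are no independent test. Of 49 tested members, 39 fell and 3 rose, beside 27.6% lower and 26.8% higher over all tested genes. These shares are the background for the counts of every list below. The median log2 fold change was -2.70 beside 0.02 over all tested genes. At least 2-fold falls were found for 35 of the 49, beside 5.99% of all tested genes. F12, which starts contact-activated clotting, had the smallest adjusted p (9.9e-13) of the list, at 5.48, 4.98 and 4.73 CPM in KO and 225, 197 and 187 in WT (-5.32 ± 0.09). Ugt3a2, a sugar-conjugating enzyme, was at 0.707, 0.515 and 0.409 CPM in KO and 72.8, 63.2 and 59.7 in WT (-6.89 ± 0.17). Cyp2j5, an arachidonic acid epoxygenase, was at 0.883, 1.20 and 1.23 and 105, 87.6 and 96.2 (-6.43 ± 0.14). In these 3 genes every KO library was far below every WT library. Apob, the scaffold of very-low-density lipoprotein and the member with the most reads, fell by a smaller step, from 3526, 3517 and 2804 CPM in WT to 1595, 1387 and 1527 in KO (-1.13 ± 0.12). The 3 that rose were the iron hormone gene Hamp (1.87 ± 0.43), the xenobiotic receptor gene Nr1i2 (0.61 ± 0.14) and the antithrombin gene Serpinc1 (0.41 ± 0.09). Several members stand on other lists below and are counted in each.

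Hepatocyte transcription factors moved in both directions, as did all tested genes (26.8% higher and 27.6% lower). Of 32 tested, 15 fell and 13 rose, with a median of -0.15. Nr1i3, the xenobiotic receptor CAR, was at 0.0589, 0.172 and 0.117 CPM in KO and 4.76, 4 and 3.67 in WT (-5.07 ± 0.36). The fatty acid receptor gene Ppara (-1.20 ± 0.20), the glucose-responsive factor Mlxipl (-1.13 ± 0.11), the clock repressor Nr1d1 (-2.04 ± 0.24), Cebpa (-0.84 ± 0.09) and Zhx2, a repressor of fetal genes (-0.80 ± 0.07), also fell. Onecut1 (1.40 ± 0.27), Onecut2 (1.04 ± 0.11), Foxa1 (0.46 ± 0.08), Foxa2 (0.38 ± 0.11), Nr5a2 (0.50 ± 0.07) and Nr0b2, the repressor SHP (2.19 ± 0.38), rose. Zbtb20, the factor with the most reads, did not pass (0.07 ± 0.09).

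Coagulation and complement genes moved in both directions, as did all tested genes (26.8% higher and 27.6% lower). In coagulation and fibrinolysis, 11 of 30 tested genes were lower and 11 higher, around a median of -0.17. The falls were the larger changes: 7 of the 30 fell at least 2-fold and 3 rose, beside 5.99% and 9.56% of all tested genes. Hrg, a histidine-rich plasma glycoprotein that binds plasminogen and heparin, was at 4.59, 3.78 and 4.27 CPM in KO and 250.5, 229 and 193 in WT (-5.73 ± 0.14). F13b, the carrier subunit of the clot-stabilising transglutaminase, was at 1.53, 1.49 and 1.81 CPM in KO and 53.4, 43.9 and 43.7 in WT (-4.86 ± 0.13). Proz, a cofactor in the inhibition of factor X, fell (-4.97 ± 0.19). The 3 fibrinogen chains did not pass: Fgb, the gene of the list with the most reads, differed by 0.03 ± 0.11, Fga by -0.19 ± 0.13 and Fgg by -0.16 ± 0.15. The plasminogen activator gene Plat (2.12 ± 0.07) and the tissue factor gene F3 (1.58 ± 0.12) rose.

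Of 25 tested complement genes 9 were lower and 7 higher, around a median of 0.12. These counts of changes of any size do not set the list apart from all tested genes. The large falls do: 8 of the 25 fell at least 2-fold and 2 rose, beside 5.99% and 9.56% of all tested genes. C3, the central component, had the most reads and rose, from 6151, 5050.0 and 5074 CPM in WT to 14541, 15270.0 and 14802 in KO (1.45 ± 0.10). Genes of the membrane attack complex did not all move in the same direction. C8g was at 1.83, 1.03 and 1.52 CPM in KO and 105, 96.3 and 103 in WT (-6.12 ± 0.11), C8a at 2.77, 1.66 and 1.99 and 120.0, 109 and 106 (-5.70 ± 0.13), and C9 at 0.766, 0.744 and 0.701 and 31.1, 29.6 and 30.6 (-5.35 ± 0.12). All 3 were at a few percent of WT in every KO library. C8b, which encodes the partner chain of C8a and C8g, was instead higher, at 83.6, 101 and 91.2 CPM in KO and 63.2, 53.9 and 57.1 in WT (0.66 ± 0.13, adjusted p = 6.2e-04). Hc, which encodes C5, did not pass (0.22 ± 0.09). The lectin-pathway recognition gene Mbl2 (-3.65 ± 0.12) and the inhibitor gene Cfi (-2.85 ± 0.16) fell.

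**Figure D2:**
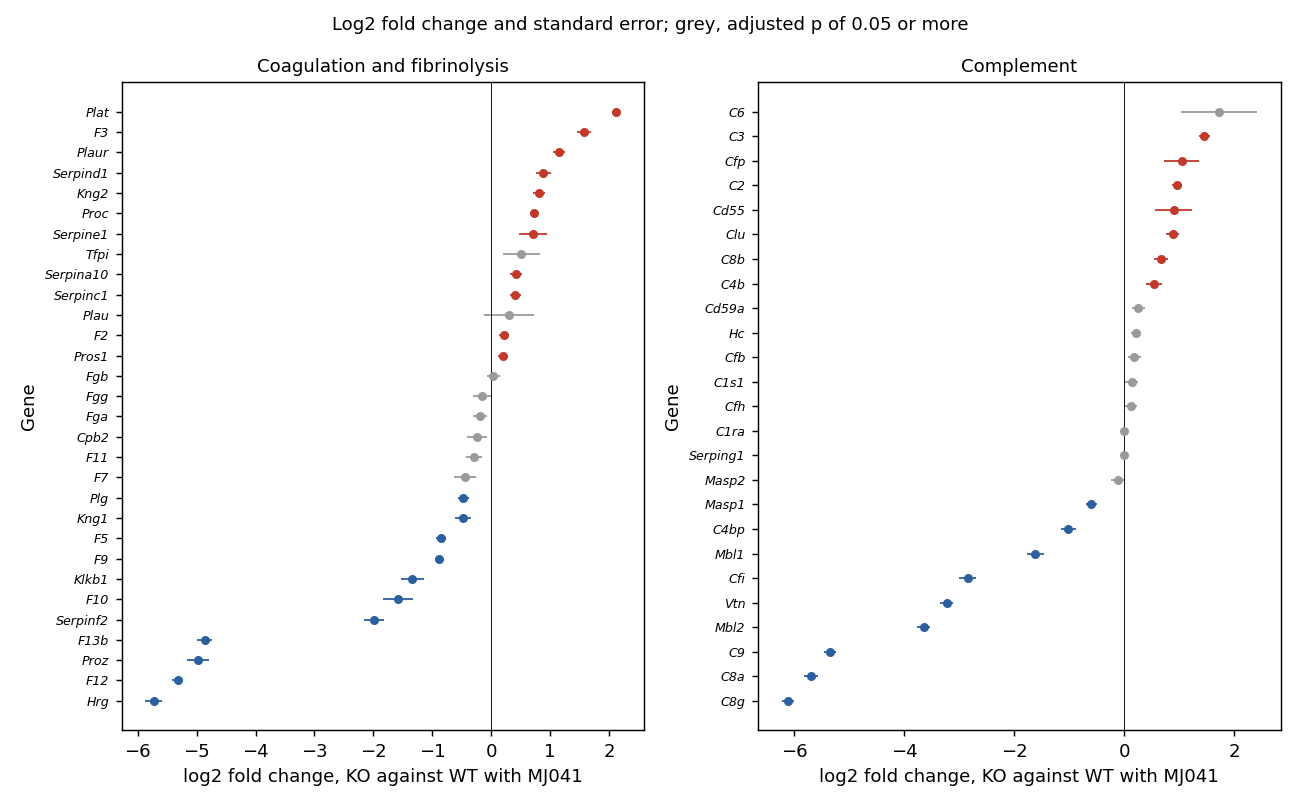
Log2 fold change of KO against WT with MJ041 for each tested gene of the coagulation and complement lists, with bars for the standard error, red for higher, blue for lower and grey for not passing. Hrg, F12, Proz and F13b in coagulation and C8g, C8a and C9 in complement lie below -4, while C8b and C3 lie above 0.

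Plasma and acute-phase proteins had 18 lower and 14 higher genes of 36 tested, and a median of -0.21. Alb, the main plasma protein, was at 18275, 19115 and 19115 CPM in KO and 56531, 50598 and 44191 in WT (-1.42 ± 0.11). The protease inhibitors Serpina3k and Serpina1a fell far more. Serpina3k was at 11, 7.95 and 8.77 CPM in KO and 958, 856 and 910.0 in WT (-6.62 ± 0.12), and Serpina1a at 8.89, 4.63 and 7.66 and 422, 361 and 336 (-5.73 ± 0.19); both belong to families of near-identical copies. The thyroxine carrier Ttr (-2.03 ± 0.10), Apoh (-1.68 ± 0.07) and the pentraxin Apcs (-2.71 ± 0.11) fell as well. Haptoglobin, which binds free haemoglobin, went the other way, with Hp at 3562, 3113 and 3302 CPM in KO and 819, 589 and 708 in WT (2.24 ± 0.12). Serpina6, the cortisol-binding globulin, was at 123, 98 and 107 CPM in KO and 11.7, 8.68 and 6.74 in WT (3.60 ± 0.15), higher in KO. The vitamin D carrier gene Gc (0.95 ± 0.13) and Ambp, the precursor of a protease inhibitor (1.57 ± 0.08), also rose.

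Lipoprotein genes were mostly lower. Of 30 tested apolipoprotein and lipid export genes, 19 fell and 6 rose, and the median was -0.68. Apoc3, which slows the clearance of triglyceride-rich particles, was at 64.6, 47.3 and 52.3 CPM in KO and 425, 397 and 398 in WT (-2.90 ± 0.11). Apom, the carrier of sphingosine phosphate, was at 3.30, 2.69 and 3.04 CPM in KO and 90.8, 77.9 and 71.7 in WT (-4.73 ± 0.13). Both were separated from WT by a wide gap in all libraries. Apoa4 (-4.31 ± 0.26) and the lipid transfer gene Mttp (-1.16 ± 0.12) fell, and Apoe, the member with the most reads, fell slightly (-0.33 ± 0.08). Apoa1, the main protein of high-density lipoprotein, rose from 1484, 1218 and 1147 CPM in WT to 2020.0, 2515 and 2108 in KO (0.79 ± 0.13), against the direction of Apoa2. The sorting receptor gene Sort1 (2.97 ± 0.15) and the clearance receptor gene Lrp1 (1.39 ± 0.06) rose.

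Amino acid breakdown was lower over most of its list, while parts of the urea cycle did not pass. Of 52 tested genes, 35 fell and 6 rose, and the median was -0.87. Otc, the urea cycle enzyme that makes citrulline, was at 0.707, 0.343 and 0.584 CPM in KO and 50.6, 45.8 and 39.7 in WT (-6.37 ± 0.18). Ass1, the next step, fell (-0.70 ± 0.09), while Cps1, which feeds the cycle (-0.09 ± 0.15), and Arg1, which closes it (0.10 ± 0.25), did not pass. Gnmt, which consumes S-adenosylmethionine, was at 20.3, 19.6 and 17.2 CPM in KO and 142, 127 and 151 in WT (-2.88 ± 0.08). The homocysteine methyltransferase gene Bhmt (-2.53 ± 0.11) and the kynurenine hydroxylase gene Kmo (-4.04 ± 0.19) fell. Kynu, the enzyme that follows Kmo and precedes Haao in the tryptophan route, rose (1.01 ± 0.13).

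Of 46 tested cytochrome P450 genes, 34 fell and 6 rose, and the median was -2.20. Cyp3a11, the main drug-oxidising enzyme of its family in mouse liver, was at 106, 44.2 and 72.4 CPM in KO and 1191, 1001 and 945 in WT (-3.82 ± 0.31). Cyp2c70, which makes the muricholic bile acids of mice, was at 2.83, 3.03 and 2.81 CPM in KO and 76.9, 68.4 and 70.1 in WT (-4.63 ± 0.10). Cyp2c67 (-6.39 ± 0.12), Cyp2d26 (-6.85 ± 0.19), Cyp2a12 (-6.50 ± 0.16) and the ethanol-oxidising Cyp2e1 (-2.77 ± 0.16) fell too. Cyp1a1, the classical target of the aryl hydrocarbon receptor, rose, with 19.3, 20.9 and 20.7 CPM in KO and 4.94, 4.06 and 3.84 in WT (2.24 ± 0.15), and so did Cyp1a2 (0.90 ± 0.11).

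Conjugation enzymes and carboxylesterases were divided, with 21 of 55 tested genes lower and 19 higher, beside 27.6% and 26.8% of all tested genes. Their median of -0.03 became 0.06 with upper-quartile scaling, so its sign depended on the scaling. Gstm3, a glutathione transferase, was at 163, 164 and 147 CPM in KO and 8.03, 8.25 and 3.08 in WT (4.62 ± 0.22). Its relative Gstm2 was at 285, 306 and 277 CPM in KO and 22.4, 21.4 and 16.7 in WT (3.84 ± 0.11). The carboxylesterase Ces1c (1.66 ± 0.09), the member with the most reads, and the glucuronosyltransferase Ugt1a6a (3.10 ± 0.35) rose as well, while Ugt2a3 fell (-2.96 ± 0.08).

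In bile acid synthesis and transport, 18 of 33 tested genes were lower and 9 higher, beside 27.6% and 26.8% of all tested genes. The median of the list was -0.88. Slc27a5, which attaches coenzyme A to bile acids before conjugation, was at 2, 1.20 and 1.81 CPM in KO and 204, 180.3 and 160.4 in WT (-6.76 ± 0.20). The sinusoidal uptake carriers fell, Slc10a1 from 31.3, 23.3 and 28.1 CPM in WT to 3.71, 3.32 and 3.16 in KO (-3.02 ± 0.14) and Slco1b2 as well (-3.54 ± 0.27). Slc47a1, an organic cation exporter, fell (-2.70 ± 0.11), and the canalicular bile salt pump gene Abcb11 fell (-1.04 ± 0.14). Other efflux pumps rose: Abcc4 by 1.06 ± 0.12, the phospholipid translocator gene Abcb4 by 1.17 ± 0.18, and Abcc2, with the most reads of the list, by 0.42 ± 0.13 (adjusted p = 0.016). The call of Abcc2 was lost without KO replicate 2 or without WT replicate 3. Cyp7a1, the rate-limiting enzyme of bile acid synthesis, was scarce in both, with 1 read over the KO group and 30 over the WT group.

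**Figure D3:**
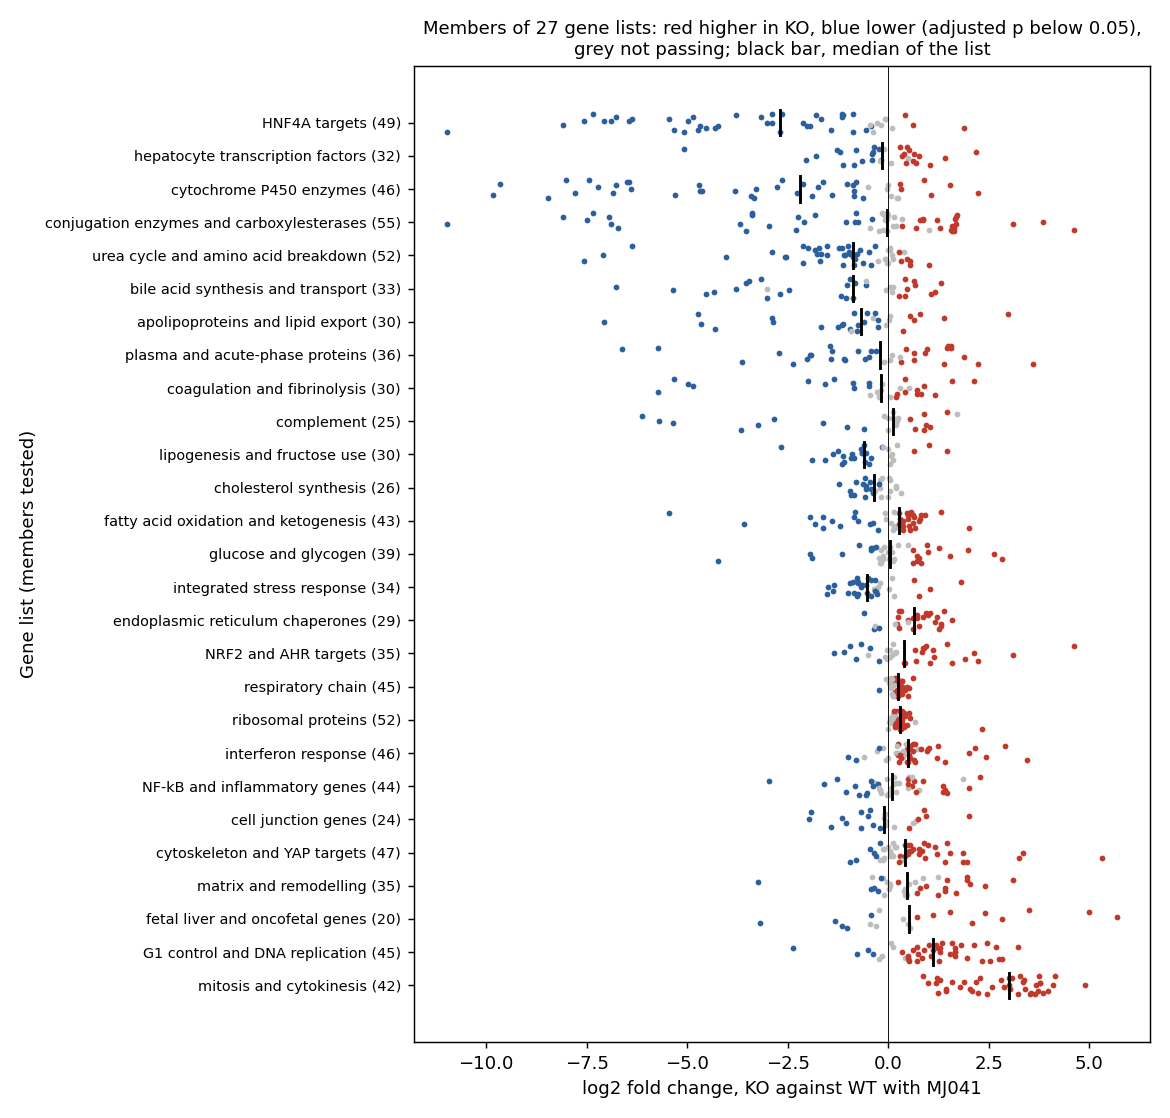
Log2 fold change of KO against WT with MJ041 for each tested member of 27 gene lists (number tested in brackets), red higher, blue lower, grey not passing, and a black bar at the median of the list. The HNF4A target and P450 medians lie at -2.70 and -2.20 and the mitosis median at 3.00; the leftmost point, Ces3b, is a fitted value against 0 counts and no bound.

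Fatty acid and sterol synthesis genes were more often lower in KO with MJ041. Lipogenesis and fructose use had 20 lower and 3 higher of 30 tested, and a median of -0.60. Scd1, which desaturates stearate, was at 2025, 2047 and 2039 CPM in KO and 4406, 4482 and 2655 in WT (-0.92 ± 0.18, adjusted p = 8.3e-04). WT replicate 3 was closest to KO, and without WT replicates 1 and 2 the difference was -0.39 with an adjusted p of 0.101. Tkfc, which phosphorylates glyceraldehyde from fructose, was at 61.5, 53 and 56.3 CPM in KO and 354, 412 and 314 in WT (-2.66 ± 0.11), and the fructokinase gene Khk at 43, 46.5 and 40.4 and 133, 128 and 123 (-1.56 ± 0.08). Agpat2, which acylates lysophosphatidate, fell (-0.56 ± 0.05), the acyltransferase gene Gpam rose (1.02 ± 0.14), and Acaca, the committed step of fatty acid synthesis, did not pass (0.03 ± 0.12). In cholesterol synthesis, 14 of 26 tested genes were lower and 0 higher, around a median of -0.35. Insig1, a feedback regulator of sterol synthesis, fell (-1.23 ± 0.15). Without WT replicates 1 and 2, 8 cholesterol genes fell, 2 rose and the median was -0.21.

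Fatty acid oxidation genes were more often higher, 22 of 43 tested against 14 lower, with a median of 0.26. The members that fell had the larger changes. Fabp1, the cytosolic fatty acid carrier of the liver, was at 7.18, 4.81 and 4.68 CPM in KO and 302, 209 and 222 in WT (-5.46 ± 0.21), and the acyl-CoA synthetase gene Acsl5 at 319, 355 and 337 and 993, 1138 and 979 (-1.62 ± 0.08). The ketone body gene Bdh1 (-3.58 ± 0.32) and the peroxisomal Ehhadh (-1.82 ± 0.26) fell. Cpt1a, which admits long-chain fatty acids to mitochondria, rose from 38.3, 33.9 and 28.5 CPM in WT to 62.6, 52.8 and 59.6 in KO (0.80 ± 0.11), and Hadha (0.61 ± 0.07), the lipid droplet coat gene Plin2 (0.30 ± 0.06), the uptake receptor gene Cd36 (1.32 ± 0.13) and Acot1 (2.01 ± 0.27) rose.

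In glucose and glycogen metabolism 13 of 39 tested genes were higher and 9 lower, beside 26.8% higher and 27.6% lower over all tested genes. The median of 0.05 became -0.02 without WT replicate 3 and -0.06 without KO replicate 1. Hk2, a hexokinase that adult hepatocytes express little of, was at 260.2, 209 and 220.3 CPM in KO and 27.4, 34.7 and 34.4 in WT (2.84 ± 0.17). Gckr, the inhibitor of glucokinase, was at 314, 225 and 259 CPM in KO and 73.8, 75.9 and 50.9 in WT (1.99 ± 0.18). G6pc, which releases glucose from its phosphate, was at 0.766, 0.343 and 0.584 CPM in KO and 13.3, 8.31 and 10.5 in WT (-4.23 ± 0.46). Pck1, the gluconeogenic carboxykinase, passed (-1.95 ± 0.56) although KO replicate 2 (6.07 CPM) lay above WT replicate 2 (5.91 CPM). The adult pyruvate kinase gene Pklr fell (-1.14 ± 0.17) and its fetal counterpart Pkm rose (0.72 ± 0.09).

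Cell division genes had the highest median of the 34 lists. KO and WT libraries did not overlap for any of the 42 tested mitosis and cytokinesis genes. Over all tested genes, 59.2% were without overlap, 26.8% were higher and 9.56% were at least 2-fold higher. All 42 rose, 40 of them at least 2-fold, and the median was 3.00. This count was 42 higher and 0 lower under every alternative run. Their summed level was 697.6 to 1314 CPM in KO and 216.7 to 227.7 CPM in WT, lowest in KO replicate 1 and highest in KO replicate 2. Mki67, the proliferation antigen, was at 49.2, 104 and 80.8 CPM in KO and 5.87, 4.50 and 4.61 in WT (3.96 ± 0.27). Anln, an actin-binding protein of the cleavage furrow, was at 36.3, 64.7 and 52.1 CPM in KO and 3.77, 4 and 5.44 in WT (3.53 ± 0.20). Kif11, the motor that separates spindle poles, was at 12.9, 22.8 and 20 CPM in KO and 1.54, 1.17 and 1.12 in WT (3.85 ± 0.25). The condensin gene Smc4, the member with the most reads, rose by 1.20 ± 0.13, Foxm1, the transcription factor of late cell cycle genes, by 3.00 ± 0.23, the kinase gene Cdk1 by 2.44 ± 0.23 and Top2a by 3.71 ± 0.26.

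Of 45 tested genes of G1 control and DNA replication, 36 rose and 4 fell, with a median of 1.12. Ccnd1, the cyclin that drives entry into the cycle, was at 317, 375 and 349.9 CPM in KO and 55.5, 67.6 and 56.8 in WT (2.53 ± 0.08). Rrm2, which supplies deoxynucleotides, was at 64, 129 and 100.3 CPM in KO and 13, 13.1 and 15.4 in WT (2.82 ± 0.23), and the thymidine kinase gene Tk1 at 14.4, 31.6 and 24.7 and 2.10, 2.34 and 3.08 (3.23 ± 0.26). E2f1 rose as well (2.13 ± 0.22). The 4 that fell were Myc, from 344, 304 and 305 CPM in WT to 171, 200.2 and 185 in KO (-0.78 ± 0.07), the inhibitors Cdkn1c (-2.36 ± 0.24) and Cdkn1a (-0.37 ± 0.09), and the replication licensing gene Cdt1 (-0.50 ± 0.12).

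Genes of the actin cytoskeleton and targets of the YAP co-activator were more often higher, 27 of 47 tested against 6 lower, with a median of 0.42. Actb, the member with the most reads, was at 3639.6, 3968 and 3754 CPM in KO and 2173, 2279.5 and 2204 in WT (0.77 ± 0.07). The calponin Cnn2 was at 69.3, 75.3 and 72.1 CPM in KO and 8.22, 7.82 and 6.92 in WT (3.24 ± 0.10), and Csrp1, a LIM protein of actin bundles, at 100.1, 101 and 96 and 23.8, 28.7 and 29.4 (1.86 ± 0.08). The YAP target genes Ccn2 (1.45 ± 0.11) and Ankrd1 (1.53 ± 0.12) and the filamin gene Flna (1.17 ± 0.06) rose. Wwtr1, which encodes TAZ, the relative of YAP, was lower, at 70.1, 67.5 and 67.9 CPM in KO and 131, 137 and 131 in WT (-0.95 ± 0.05).

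Cell junction genes fell in 11 and rose in 5 of 24 tested, beside 27.6% and 26.8% of all tested genes. Their median of -0.10 became 0.02 without WT replicates 1 and 2. Cldn2, a pore-forming claudin, was at 12.1, 15.8 and 13.7 CPM in KO and 72.1, 49.9 and 42.2 in WT (-1.98 ± 0.18). Ocln (-1.43 ± 0.08), the cadherin gene Cdh2 (-1.05 ± 0.06) and the desmosomal gene Dsp (-0.68 ± 0.13) fell, while Cdh1 (0.51 ± 0.09) and Cgn (0.89 ± 0.10) rose. Among matrix and remodelling genes 14 of 35 tested rose and 5 fell, with a median of 0.46. Loxl2, a collagen cross-linking oxidase, was at 52.9, 76.3 and 67.9 CPM in KO and 8.28, 7.82 and 6.92 in WT (3.10 ± 0.15), and Thbs1, a thrombospondin, at 259.8, 331 and 284 and 55.9, 38 and 69.7 (2.42 ± 0.17). Vtn, the plasma adhesion protein that is also on the complement list, was at 59.1, 74 and 68.7 CPM in KO and 697, 608 and 593 in WT (-3.23 ± 0.12). Without WT replicates 1 and 2 the matrix median was 0.14. In WT replicates 1 to 3 the mean log2(CPM + 1) was 4.05, 4.06 and 4.52 for the matrix list. For stellate cell markers it was 2.16, 2.22 and 2.88. The summed matrix level went the other way, at 3751, 3746 and 3568 CPM in these libraries. The part of stellate cells in the matrix result was not tested.

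Fetal liver and oncofetal genes rose in 9 and fell in 5 of 20 tested, beside 26.8% and 27.6% of all tested genes. Their median was 0.51, and 6 further members had too few counts to be tested. Pkm, a pyruvate kinase and the member with the most reads, rose by 0.72 ± 0.09. Ly6d, a surface protein, was at 148, 185 and 158 CPM in KO and 32.9, 46.7 and 36.3 in WT (2.08 ± 0.16). Cd24a (3.50 ± 0.34) and Lgals1 (1.12 ± 0.21) rose, and Dlk1, a marker of hepatoblasts, had 127 counts in KO and 2 in WT, 60.7-fold higher (16.5 to 507). Afp, the fetal counterpart of albumin, was instead lower, at 4.65, 9.50 and 5.44 CPM in KO and 12.4, 14 and 13.2 in WT (-1.01 ± 0.22), as was Igf2bp2 (-1.32 ± 0.10).

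Stress pathways differed in direction. Of 34 tested genes of the integrated stress response, which restrains translation and induces amino acid supply through ATF4, 24 fell and 4 rose, with a median of -0.52. Asns, asparagine synthetase, was at 43, 41.8 and 44 CPM in KO and 110.1, 116 and 108 in WT (-1.37 ± 0.05). Atf4 itself (-0.66 ± 0.06), Mthfd2 (-1.35 ± 0.06), Cth (-1.52 ± 0.09), Chac1 (-1.50 ± 0.14) and the amino acid carrier gene Slc3a2 (-0.99 ± 0.06) fell. Ddit3, the factor CHOP, was higher, at 133, 76.8 and 103 CPM in KO and 33.6, 23.3 and 32.3 in WT (1.81 ± 0.25). Of 29 tested endoplasmic reticulum chaperone genes, 23 rose and 3 fell, and the median was 0.65. Hspa5, the chaperone BiP, was at 4378, 3548 and 3934 CPM in KO and 2681, 2302 and 2695 in WT (0.63 ± 0.13), and Sdf2l1 at 151, 120.3 and 134 and 49.1, 41.6 and 43.9 (1.59 ± 0.16). Hsp90b1 (1.17 ± 0.15), Manf (1.32 ± 0.14) and the translocon gene Sec61b (0.72 ± 0.07) rose. The 3 that fell were the sensors and effectors Xbp1 (-0.60 ± 0.06), Atf6 (-0.35 ± 0.07) and Ern1 (-0.23 ± 0.06).

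Targets of the oxidative stress factor NRF2 and the aryl hydrocarbon receptor rose in 18 and fell in 7 of 35 tested, with a median of 0.39. Aox1, an aldehyde oxidase, was at 199, 203 and 203 CPM in KO and 55.8, 53.1 and 50.9 in WT (1.92 ± 0.06). The quinone reductase gene Nqo1 (1.11 ± 0.16), the carbonyl reductase gene Cbr3 (2.13 ± 0.14) and the receptor gene Ahr (1.13 ± 0.10) rose. Hmox1, which breaks down haem, was lower, at 116, 152 and 134 CPM in KO and 432, 228 and 362 in WT (-1.35 ± 0.25), as was Srxn1 (-1.09 ± 0.12). Ribosomal protein genes rose in 40 and fell in 0 of 52 tested by a small step, with a median of 0.28. Rpl4, with the most reads, rose by 0.28 ± 0.06 and Rpl15 by 0.47 ± 0.05. Rpl26 stood apart, at 231, 159.8 and 197 CPM in KO and 39.1, 36.3 and 40.8 in WT (2.34 ± 0.14); ribosomal protein genes have many processed copies, so a single member is uncertain. Respiratory chain genes rose in 33 and fell in 1 of 45 tested, the cytochrome c gene Cycs (-0.24 ± 0.08), with a median of 0.24, among them the complex I gene Ndufa1 (0.62 ± 0.07) and the complex IV gene Cox7b (0.51 ± 0.06). The mitochondrially encoded mt-Co1 did not pass (0.09 ± 0.11).

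Interferon-stimulated genes were more often higher in KO with MJ041, 30 of 46 tested against 3 lower, with a median of 0.48. Tgtp1, an interferon-induced GTPase with a near-identical copy, was at 102, 129.8 and 126 CPM in KO and 14.2, 7.57 and 11.2 in WT (3.44 ± 0.22). Oasl2, of the oligoadenylate synthetase family, was at 257, 245 and 248 CPM in KO and 43.9, 43.4 and 82 in WT (2.15 ± 0.22). Oas2 was at 47.9, 48.9 and 44.6 CPM in KO and 3.09, 4.25 and 11.3 in WT (2.91 ± 0.35). In Oasl2 and Oas2, WT replicate 3 was the WT library nearest to KO. The 3 lower genes were Cxcl9 (-1.01 ± 0.17), Oasl1 (-0.80 ± 0.17) and Irf9 (-0.23 ± 0.07), and Rsad2, the member with the most reads, did not pass (-0.60 ± 0.24). WT replicates 1 and 2, the libraries low in Kupffer and endothelial markers, were also the lowest for this list, with a mean log2(CPM + 1) of 5.95 to 6.50 over the 3 WT libraries and 6.82 to 6.84 in KO. Without both, 19 members rose and 5 fell, with a median of 0.27, and with the non-hepatocyte marker level as a covariate 24 rose and 5 fell. The part of other cell types in this result was not tested.

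NF-kB and inflammatory genes had no common direction, with 12 of 44 tested higher and 12 lower. These counts are near the shares over all tested genes, 26.8% higher and 27.6% lower. Their median of 0.10 became -0.15 without WT replicate 2, -0.25 without WT replicates 1 and 2, and -0.18 with the marker covariate. Lcn2, an iron-sequestering acute-phase protein and the member with the most reads, was at 1987, 2305 and 2109 CPM in KO and 1039.6, 571 and 705 in WT (1.47 ± 0.22). Lbp, the plasma protein that binds endotoxin, was at 115, 102 and 112 CPM in KO and 51.1, 36.5 and 41.3 in WT (1.36 ± 0.12). Its partner Cd14, the endotoxin co-receptor, was lower, at 118, 93.3 and 106 CPM in KO and 273, 216 and 278 in WT (-1.27 ± 0.12). The subunit gene Rela was at 103, 99.7 and 101 CPM in KO and 194, 169.8 and 177 in WT (-0.83 ± 0.06), and Nfkb2 also fell (-0.72 ± 0.10). Among chemokines, Cxcl2 was at 6.36, 6.41 and 8.59 CPM in KO and 52.5, 33.1 and 81.8 in WT (-2.97 ± 0.31) and Ccl5 fell (-1.61 ± 0.28), while Ccl2 rose (1.40 ± 0.28).

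Markers of other liver cells were present in all 6 libraries. Their counts below stand beside 26.8% higher and 27.6% lower over all tested genes. Kupffer markers summed to 550.7 to 590.1 CPM in KO and 211.1 to 501.3 CPM in WT, with Cd163 of 20 at 0 counts throughout. In the test, 3 of 19 rose and 1 fell, with a median of 0.47. Without WT replicate 3, 16 rose and 1 fell, and without WT replicates 1 and 2, 1 rose and 2 fell with a median of -0.41. Mpeg1, a pore-forming protein of macrophages, rose (1.83 ± 0.26) from 53.3, 68.2 and 115 CPM in WT to 277, 284 and 282 in KO, and Cd68 fell (-0.75 ± 0.12). In the summed level, of which Mpeg1 is a large part, the KO libraries lay above all WT libraries, with WT replicate 3 the nearest. In the mean log2(CPM + 1) of the list, WT replicate 3 (3.93) lay above the KO libraries (3.65 to 3.84), and WT replicates 1 and 2 lay below them (1.99 and 2.78). Endothelial markers summed to 329.0 to 394.7 CPM in KO and 201.4 to 374.4 in WT, with 5 of 20 higher and 0 lower, 13 and 0 without WT replicate 3, and 0 and 1 without WT replicates 1 and 2. Leaving out any 1 of the KO libraries with MJ041 left 2 or 3 endothelial markers higher, and leaving out WT replicate 1 or 2 left 1. Stellate markers summed to 192.4 to 221.2 CPM in KO and 107.5 to 176.8 in WT, with 6 of 15 higher and 0 lower, 10 and 0 without WT replicate 3, and 2 and 1 without WT replicates 1 and 2.

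Of 17 cholangiocyte markers 12 were tested: 7 rose, 1 fell and 4 did not pass, with a median of 0.88, and without WT replicates 1 and 2 the counts were 6 higher and 1 lower. They summed to 682.6 to 903.3 CPM in KO and 480.3 to 588.5 in WT, and Sctr was at 0 counts in all 6. Krt19, the keratin of bile duct cells, was at 32.5, 29.2 and 28.7 CPM in KO and 3.21, 4.13 and 4.79 in WT (2.89 ± 0.13), and Bicc1 rose (2.45 ± 0.20). Sox9, the duct and progenitor factor, was lower, at 23.2, 21.9 and 22.4 CPM in KO and 45.5, 39.2 and 47.8 in WT (-0.97 ± 0.12), and Epcam (-0.45 ± 0.37) and Spp1, the member with the most reads (0.86 ± 0.41), did not pass. Lymphocyte and neutrophil markers were near 0. Of the 16 only 2, Cd79b and Cd4, had enough counts to be tested, and these summed to 1.77 to 2.00 CPM in KO and 0.556 to 2.43 in WT. Ncr1, S100a9 and Cxcr2 were at 0 counts. Of the erythroid markers only Alas2, the haem synthesis enzyme of red cell precursors, could be tested, and it fell (-4.68 ± 0.47, 4 counts in KO and 107 in WT). Hepatocyte markers fell in 12 and rose in 3 of 20 tested, with a median of -0.57, among them the asialoglycoprotein receptor gene Asgr1 (-2.58 ± 0.19).

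Most of the large genotype differences with MJ041 were also found with vehicle, in 6 libraries that the MJ041 comparison does not contrast. With vehicle 8126 genes passed (54.5%), 4108 higher (27.5%) and 4018 lower (26.9%), and 6520 genes passed in both comparisons in the same direction, 20 in opposite directions, 1578 with MJ041 only and 1586 with vehicle only. Across the 14919 genes, which are not independent replicates, the log2 fold changes had a Pearson r of 0.896 and a Spearman rho of 0.802. Of the 2319 genes that differed at least 2-fold with MJ041, 1963 (84.6%) passed in the same direction with vehicle, 353 did not pass with vehicle, and 3 passed in the other direction. Among those 3 were the cytokine gene Csf2 and the mesenchymal factor Prrx1, both with few reads and named after their values were seen. The at least 2-fold sets shared 1670 genes, 72.0% of the MJ041 set and 73.7% of the 2265 genes (15.2% of tested) of the vehicle set. Hnf4a differed by -0.92 ± 0.10 with vehicle and by -1.26 ± 0.10 with MJ041 (difference -0.34 ± 0.15, adjusted p = 0.33).

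**Figure D4:**
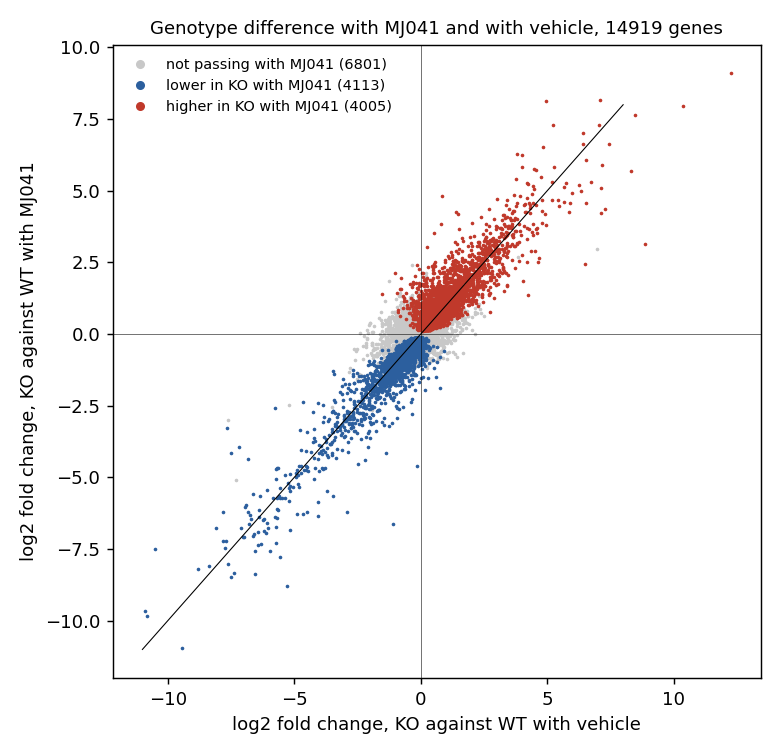
Log2 fold change of KO against WT with MJ041 (vertical) and with vehicle (horizontal) for 14919 genes, coloured by the test with MJ041 (red 4005 higher, blue 4113 lower, grey not passing), with a line of equal values. Most coloured points lie near the line, and 1670 genes differed at least 2-fold in both.

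The test of the difference between the 2 genotype differences called 0 genes (0% of tested genes) with edgeR's quasi-likelihood test, with 1980 genes (13.3%) at an unadjusted p below 0.05 and a smallest adjusted p of 0.119. DESeq2 called 218, limma voom called 0, and edgeR without the low-count filter called 886. With the replicate number as a block within each genotype, a fit added after the data were seen, edgeR called 608, 306 of them higher and 302 lower. Without WT replicate 3 with MJ041 the main test called 852, and without replicate 2 of WT with vehicle 7. The 6 genes with the smallest p did not pass. Among them Tkfc, of the fructose route, differed by -2.66 ± 0.11 with MJ041 and -1.70 ± 0.11 with vehicle (difference -0.96 ± 0.15). Ifi47, an interferon-induced GTPase, differed by 1.09 ± 0.10 with MJ041 and 0.25 ± 0.10 with vehicle (0.83 ± 0.15). Also among them were F830016B08Rik (1.57 ± 0.24), the membrane skeleton gene Epb41l1 (-0.59 ± 0.10) and Fam185a (-0.50 ± 0.09).

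By list, the values with and without the compound can be set side by side. Over all tested genes the median difference of differences was -0.02. Members of a list were measured in the same 12 libraries, so counts of signs are not independent. All 46 interferon genes had a positive difference of differences, with a median of 0.75 and 0 calls: 30 were higher and 3 lower with MJ041, and 9 higher and 14 lower with vehicle. The median was 0.45 without WT replicates 1 and 2 with MJ041, and without WT replicate 3 with MJ041 32 of the 46 passed. The mean log2(CPM + 1) of the list was 6.53 to 7.10 in WT with vehicle and 5.95 to 6.50 in WT with MJ041, and 6.70 to 6.81 and 6.82 to 6.84 in KO. NF-kB and inflammatory genes were higher in 6 and lower in 26 with vehicle (12 and 12 with MJ041), with 42 of 44 differences positive and a median difference of 0.55. Lipogenesis genes had a median of -0.06 with vehicle and -0.60 with MJ041, with 27 of 30 differences negative. Their mean level was 6.42 to 6.63 in WT with vehicle and 6.83 to 7.07 in WT with MJ041. Scd1, for example, differed by 0.18 ± 0.18 with vehicle, where it did not pass. Cholesterol synthesis genes had a median of 0.02 with vehicle and -0.35 with MJ041 (23 of 26 differences negative), and glucose and glycogen genes 0.60 and 0.05 (34 of 39 negative). Without WT replicate 3 with MJ041, 14 lipogenesis, 10 glucose and 7 cholesterol genes passed the test of the difference. The HNF4A targets had a median of -2.32 with vehicle and -2.70 with MJ041 (38 of 49 differences negative, median difference -0.27). Mitosis genes had 2.74 and 3.00 (36 of 42 differences positive), integrated stress response genes -0.43 and -0.52 (27 of 34 negative) and endoplasmic reticulum chaperones 0.62 and 0.65 (17 of 29 negative).

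**Figure D5:**
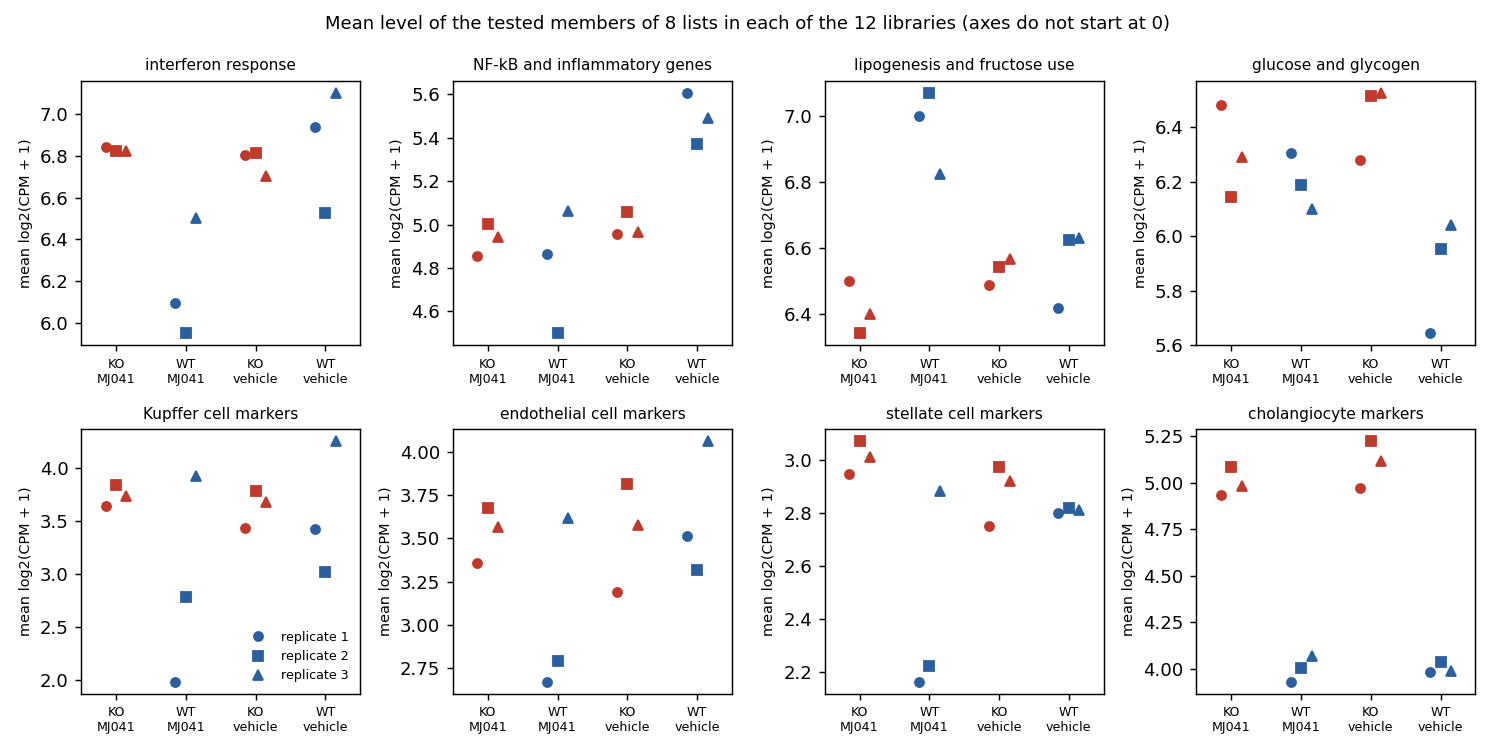
Mean log2(CPM + 1) of the tested members of 8 lists in each of the 12 libraries, red for KO and blue for WT, with symbols for replicates 1 to 3 and vertical axes that do not start at 0. The interferon list lies at 5.95 to 6.50 in WT with MJ041 and at 6.53 to 7.10 in WT with vehicle, and WT replicates 1 and 2 with MJ041 are lowest for Kupffer, endothelial and stellate markers.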

How the data were processed

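Total RNA of primary mouse hepatocytes was purified on columns and made into stranded TruSeq libraries, which were read on an Element AVITI, per the labels' protocols. The authors deposited a table of raw counts per gene for 12 libraries (55414 genes, 52081 of them paired with a symbol by a gene name table; each column was matched to a library by name). FastQC, Trimmomatic 0.34, STAR 2.7.10b, featureCounts, DESeq2 and the mm39 build are named, per the submitters' processing notes; the strand setting and the treatment of reads shared by copies were not given in the sources used here. No coordinates on mm39 are given; promoter windows are those of RefSeq on GRCm38.p6, matched by symbol or gene ID for 10958 of 14919 tested genes.

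From these counts, genes were kept with filterByExpr (minimum count 10) in edgeR 4.0.16 (R 4.3.3) and scaled by TMM, and all 12 libraries were fitted with the quasi-likelihood test, 1 coefficient per group (n = 3 libraries) and no block. Contrasts were KO against WT with MJ041, the same with vehicle, and their difference, with Benjamini-Hochberg adjustment over 14919 genes and a threshold of 0.05. CPM are counts over the scaled library size, brought to a fixed total, and log2 fold changes come from the fit. The 12 libraries held 16740761 to 17902832 counts. No 2 libraries of a group agreed within sampling noise. The procedure was tested on simulated data. DESeq2 1.42.0, limma 3.58.1 (voom), other scalings and filters, a replicate block (over all groups, or within each genotype), a marker covariate and leaving out libraries were alternatives. Intervals on ratios of counts are exact at 95% and cover counting error only.

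The members and the 34 gene lists were chosen with earlier results of these data known. F5, a coagulation factor written by mistake into the complement list, was removed from it. Genes named are Hnf4a; the 10 largest rises and 10 largest falls that passed, with at least 5 CPM in the higher group, at least 4 counts in the lower group, no overlap and no predicted-gene symbol; the 5 with the most reads among those with 3 counts or fewer in the lower group; per list the member with the highest mean and the 3 with the smallest adjusted p (2 with the highest mean where none passed); and the 6 smallest p of the difference. Other list members named were chosen after their values were seen. Some genes that this rule picks are not reported here.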

Additional observations from a re-analysis of the deposited data

How the results depend on the processing

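The number of genes that passed between KO and WT with MJ041 was 8118 and stayed between 6345 (without WT replicates 1 and 2 with MJ041, where 5922 of the 8118 kept their call and direction) and 8315 (upper-quartile scaling), with 7752 in DESeq2 and 7321 to 8216 on leaving out single libraries. No alternative gave a gene that passed in both fits the opposite direction. The count of genes for the difference between treatments, 0, became 218 in DESeq2, 886 without the low-count filter and 0 to 852 on leaving out single libraries; the cause was not tested, and the fit to the 6 libraries with MJ041 gives no such value. The genes that changed sign had not passed: on leaving out single libraries, Zbtb20 ran from -0.0271 (without WT replicate 3) to 0.156, mt-Co1 from -0.0137 (without WT replicate 3) to 0.177, Fgb from -0.0718 (without WT replicate 2) to 0.166, and Cd79b from -0.0429 (without WT replicate 1) to 0.544, all with MJ041. Cd79b was at -0.18 with the marker covariate and -0.27 without WT replicates 1 and 2, and Cd4 at -0.38 and -0.43. Rsad2 passed as lower in KO under 8 alternatives.

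Replicate numbers did not pair KO with WT libraries: with MJ041 the deviations of same-numbered libraries correlated at 0.10, -0.03 and 0.002, and not every KO library correlated best with the WT library of its own number. Across treatments within a genotype, same-numbered libraries correlated at 0.349, 0.458 and 0.039 in KO and at -0.0103, 0.203 and 0.499 in WT, where replicate 1 with MJ041 correlated best with replicate 2 with vehicle (0.445), so not every pair was above 0.1. With the number as a block within each genotype, which was chosen after seeing the data and gives a value for the difference between treatments only, 608 genes passed for that difference. With the number as 1 block over all groups, 8287 genes passed with MJ041 and 0 for the difference, and among list counts of 4 or more only those of Kupffer (7 higher) and endothelial markers (9 higher) moved by more than 1.5 times. Without the low-count filter 9 Kupffer and 11 endothelial markers were higher, voom called 7 Kupffer markers, and the 6 libraries alone gave 3 endothelial markers. The 4 integrated stress response genes that rose became 2 without KO replicate 1 or WT replicate 3 with MJ041, and the 5 matrix genes that fell became 3 with upper-quartile or total-count scaling and without KO or WT replicate 1 with MJ041. Depth limits genes with 3 counts or fewer in a group to a ratio with its interval or a bound.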
